A study of Mus musculus with 2 samples.

Results

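The genes described here are Fmo1, Fmo2, Cyp4b1, Aldh3a1, Cyp1a1 and Ephx1, a set of enzymes that act on foreign and lipid-like compounds. They were taken by name from the deposited count tables, where all 6 were found among 27998 gene names. They were chosen by their levels in these same libraries, across kinds of cell, endothelial subtypes and ages, so those levels are given as a description. The study freed C57BL6/J mouse aortas of adventitia, loosened the exposed endothelium with trypsin and a scalpel, and profiled single cells with the 10x Genomics 3′ chemistry, version 2 of the kit. It compared 1 old library, from aorta at 18 months of age, with 1 young library, from aorta at 8 weeks of age. The labels name no treatment or altered gene for either, and do not say how many animals gave each library. With 1 library per age there was no replicate and no test between ages was possible: every interval below is an exact 95% interval that covers counting error only, and age, animal and library cannot be told apart.

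Xenobiotic enzymes work in an ordered series. Oxygen-adding enzymes of phase I introduce a reactive group, hydrolases and dehydrogenases convert the reactive product, and transferases of phase II attach a soluble group that lets pumps export it. Flavin-containing monooxygenases such as Fmo1 and Fmo2 oxygenate nitrogen and sulfur atoms, and cytochromes P450 such as Cyp4b1 and Cyp1a1 oxygenate carbon. Cyp4b1 acts on fatty acids and on some protoxins, Cyp1a1 is the classic target of the aryl hydrocarbon receptor, Aldh3a1 oxidises aldehydes to acids, and Ephx1 is the microsomal epoxide hydrolase. Fmo2 and Cyp4b1 are best known from lung, and Aldh3a1 from the cornea.

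The old library held 3408 barcodes with a median of 4737 UMIs (unique transcript molecules) and the young library 1366 barcodes with a median of 7558.5 UMIs. In all, 11 barcode sequences occurred in both libraries. After a filter on mitochondrial share and gene number, cells were clustered without the 6 genes and named by marker genes. Endothelial-like (EC-like) cells numbered 2388 in the old and 1083 in the young library, and all 8 endothelial markers were detected in both. Of the EC-like cells, 443 old and 454 young cells carried the Coch, Sost and Adra2a markers (Coch/Sost endothelium), 548 old and 28 young cells carried Bcan, Isl1 and Frzb (Bcan/Isl1 endothelium), and 1397 old and 601 young cells lay in clusters that met the limit for neither set (remaining endothelium). The last group was not free of the Bcan/Isl1 markers: Isl1 was at 186 CPM (UMIs scaled to a total of 1000000) in old Bcan/Isl1 cells and 175 CPM in the old remaining cells, and at 128 CPM and 144 CPM in the young ones. Bcan was at 162 CPM and 103 CPM in the same old groups, and at 66.4 CPM and 23.4 CPM in the young ones. The largest old cluster of remaining cells also met the limit for Bcan, at 1.55 times the class mean. Frzb set the groups further apart, at 206 CPM and 80.2 CPM in the old and 248 CPM and 97.6 CPM in the young library. Different clusters held these cells at the 2 ages. The Coch/Sost cells came from a cluster of 443 old and 56 young cells and a cluster of 398 young cells only, and the remaining endothelium from a cluster of 1374 old and 35 young cells and another of 23 old and 566 young cells. Fibroblast-like cells numbered 574 old and 243 young, of which 65 old and 117 young cells formed a subtype with high Gdf10, Mfap4 and F3.

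Fmo1 and Fmo2 lie side by side on the minus strand of chromosome 1, at chr1:162829561-162866610 and chr1:162874317-162898726 (GENCODE vM21 genes on GRCm38), with 7706 bases between them. Ephx1 lies at chr1:180976210-181020904 and Cyp4b1 at chr4:115624725-115647723, both on the minus strand. Aldh3a1 lies at chr11:61207537-61218421 and Cyp1a1 at chr9:57687928-57703824, both on the plus strand. No annotated gene overlapped any of them on the opposite strand. In the last 500 bases of their transcripts, where 3′ libraries read, Fmo2 and Aldh3a1 shared no 50-base stretch with another gene, Fmo1 shared 5.16% and Cyp4b1 shared 6.17%, in its case all with the pseudogene Cyp4b1-ps2, and Ephx1 shared 1.85% with the overlapping Gm36961.

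RefSeq promoter windows, from 250 bases before to 50 bases after the start, were held for 4 of the 6 genes, namely Fmo2, Cyp4b1, Cyp1a1 and Ephx1. They were searched for GCGTG, the core of the element that the aryl hydrocarbon receptor binds, on both strands, which 32.4% of 32851 windows contained. The windows below are those of the gene that went with Coch/Sost endothelium (Cyp4b1), of the gene that was lower there (Fmo2) and of the receptor's classic target (Cyp1a1). They are printed 5′ to 3′ on the gene's strand from GRCm38.p6, with any match in capitals. Cyp4b1 is from chr4:115647672-115647971 (minus strand), Fmo2 from chr1:162898709-162899008 (minus strand) and Cyp1a1 from chr9:57697363-57697662 (plus strand).
Cyp4b1: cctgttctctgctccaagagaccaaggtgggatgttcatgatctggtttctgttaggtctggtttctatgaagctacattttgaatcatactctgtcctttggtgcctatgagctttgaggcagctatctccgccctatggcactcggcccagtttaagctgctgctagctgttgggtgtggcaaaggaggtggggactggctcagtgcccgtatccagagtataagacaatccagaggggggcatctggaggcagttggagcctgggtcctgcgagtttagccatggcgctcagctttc
Fmo2: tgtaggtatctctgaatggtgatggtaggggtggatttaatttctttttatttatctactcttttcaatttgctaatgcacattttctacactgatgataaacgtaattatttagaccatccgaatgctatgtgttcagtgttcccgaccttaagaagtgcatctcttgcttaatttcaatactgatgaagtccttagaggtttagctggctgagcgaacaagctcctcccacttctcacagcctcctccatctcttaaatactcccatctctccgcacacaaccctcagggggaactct
Cyp1a1: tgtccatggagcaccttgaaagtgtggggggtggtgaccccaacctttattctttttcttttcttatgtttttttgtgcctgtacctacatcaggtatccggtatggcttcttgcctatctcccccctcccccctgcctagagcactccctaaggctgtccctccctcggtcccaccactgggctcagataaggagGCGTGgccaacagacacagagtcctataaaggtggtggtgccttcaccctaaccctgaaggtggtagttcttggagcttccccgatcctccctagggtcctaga
Cyp1a1 had 1 match, in the gene's own direction at base 197 of the window. The windows of Fmo2, Cyp4b1 and Ephx1 had 0 matches, which says only that these letters are absent from these windows.

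Of the 6 genes, 5 were well detected, and most of their molecules came from EC-like cells. In the old library these cells held 90.7% of all Fmo1 UMIs, 93.7% of Fmo2, 93.8% of Cyp4b1, 95.3% of Aldh3a1 and 87.9% of Ephx1 UMIs. In the young library the shares were 80.2% for Fmo1, 81.2% for Fmo2, 98.1% for Cyp4b1, 97.6% for Aldh3a1 and 91.0% for Ephx1. Levels below are the summed UMIs of a kind of cell in CPM and are compared for 1 gene across cells, not between genes. T or NK-like cells of the old library served as a measure of free RNA. They held 7.67 CPM of Fmo1, 10.2 CPM of Fmo2, 17.9 CPM of Cyp4b1 and 7.67 CPM of Aldh3a1, from 3 to 7 UMIs each, but 58.8 CPM of Ephx1. These T or NK-like cells were not pure: B-cell markers summed to 1160 CPM there, beside 2059.5 CPM of T or NK markers. Fibroblast markers summed to 1410 CPM in them, against 373 CPM in old macrophage-like cells. Other old cells outside the endothelium held more of the monooxygenases: macrophage-like cells had 25.97 CPM of Fmo1 and 29.7 CPM of Fmo2, from 21 and 24 UMIs, and erythroid-like cells had 36.3 CPM of Fmo2 from 6 UMIs. EC-like over fibroblast-like cells gave 5 of 5 genes at least 2-fold higher in the old library, beside 19.6% of all genes with at least 100 UMIs, and 3 of 5 in the young library, beside 16.4%. The exceptions were the monooxygenases of the young library, whose log2 ratios were -0.16 (-0.40 to 0.10) for Fmo1 and 0.00 (-0.17 to 0.18) for Fmo2.

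**Figure D1:**
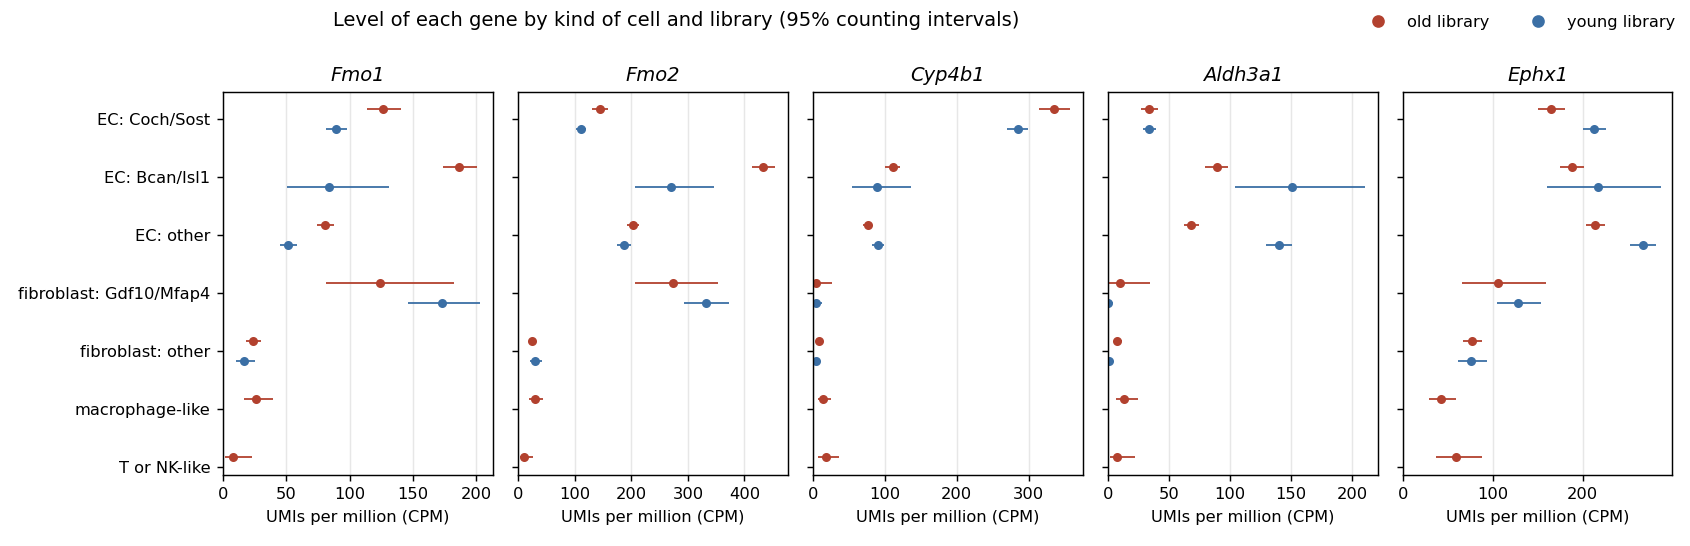
Level in CPM (horizontal axis) of 5 genes in the named kinds of cell (rows) in the old (red) and young (blue) library. The erythroid-like and the unnamed muscle-marked clusters are not drawn. Points are summed cells and bars are exact 95% counting intervals. Macrophage-like and T or NK-like cells are drawn for the old library only, since the young library had fewer than 20 of each. Cyp4b1 reached 335 CPM in old and 284 CPM in young Coch/Sost endothelium, and Fmo2 was high both in Bcan/Isl1 endothelium and in Gdf10/Mfap4 fibroblasts.

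The flavin monooxygenases crossed the border between cell classes. Fmo2 stood at 433 CPM (413 to 454) in old Bcan/Isl1 endothelium, 273 CPM (207 to 353) in old Gdf10/Mfap4 fibroblasts, 203 CPM (193 to 213) in old remaining endothelium and 144 CPM (131 to 159) in old Coch/Sost endothelium. Each of these 4 levels was clear of the others by the interval of the ratio of neighbours, while the Coch/Sost level was not clear of the 131 CPM in the unnamed muscle-marked cluster. The remaining old fibroblasts had 24.5 CPM (19.1 to 31.0) of Fmo2, at the level of old macrophage-like cells. In the young library Gdf10/Mfap4 fibroblasts had 331 CPM (294 to 373), the 28 Bcan/Isl1 cells 270 CPM (207 to 347), remaining endothelium 187 CPM (175 to 199), Coch/Sost endothelium 110.5 CPM (101 to 120) and remaining fibroblasts 30.2 CPM (21.4 to 41.5). The order of the endothelial groups was thus the same in both libraries, while the 2 highest young levels were not clear of each other.

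Fmo1 shared the fibroblast pattern. Its level was 124 CPM (81.3 to 182) in old Gdf10/Mfap4 fibroblasts and 23.4 CPM (18.1 to 29.8) in the remaining old fibroblasts, and 173 CPM (146 to 203) against 16.7 CPM (10.3 to 25.5) in the young ones. In endothelium Fmo1 was at 187 CPM (174 to 201) in old Bcan/Isl1 cells, 127 CPM (114 to 140) in old Coch/Sost cells and 80.6 CPM (74.2 to 87.4) in the old remaining cells. The young values were 89.6 CPM (81.5 to 98.2) in Coch/Sost cells, 84.1 CPM (50.6 to 131) in Bcan/Isl1 cells and 51.3 CPM (45.2 to 58.1) in the remaining cells. The remaining old fibroblasts were not clear of old macrophage-like cells for Fmo1 either. The young Bcan/Isl1 level rested on 19 UMIs and was not clear of either neighbour.

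Gdf10/Mfap4 fibroblasts held both monooxygenases at several times the level of other fibroblasts. In the old library these ratios are against a group at the level of macrophage-like cells. On the log2 scale the Fmo2 ratio of the subtype over other fibroblasts was 3.48 (2.95 to 4.01) in the old and 3.45 (2.96 to 3.98) in the young library. For Fmo1 it was 2.41 (1.70 to 3.08) in the old and 3.37 (2.71 to 4.11) in the young library. Of the members with at least 100 UMIs, 1 of 2 in the old library (Fmo2) and 2 of 3 in the young library (Fmo1 and Fmo2) were at least 2-fold higher, beside 3.63% and 3.86% of all genes. Ephx1 differed less, at 105 CPM in the subtype and 76.7 CPM in other fibroblasts of the old library, and at 128 CPM and 76.4 CPM in the young library. The subtype's 65 old cells had a median of 2802 UMIs, against 5046 UMIs in the other old fibroblasts, and the subtype was no longer a cluster of its own when only cells with up to 5% mitochondrial UMIs were kept. With cells assigned singly it held 9 old and 10 young cells. Summed endothelial markers reached 1053 CPM in the old and 449 CPM in the young Gdf10/Mfap4 fibroblasts, and 924 CPM and 573 CPM in the remaining fibroblasts of the old and young library. Cyp4b1 and Aldh3a1 stood at no more than 9.57 CPM in any fibroblast group, from 0 to 23 UMIs, at or near their level in T or NK-like cells.

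Within the endothelium, Cyp4b1 was higher in the Coch/Sost cells, and Aldh3a1 and Fmo2 were higher in the other cells. Cyp4b1 stood at 335 CPM in old Coch/Sost cells and 88.0 CPM in the old EC-like cells outside that subtype, and at 284 CPM and 89.9 CPM in the young ones. Aldh3a1 ran the other way, with 33.4 CPM in old Coch/Sost cells and 75.7 CPM outside them, and with 33.7 CPM and 140 CPM in the young library. In both libraries Cyp4b1 was thus high, and Aldh3a1 low, in Coch/Sost cells. The unnamed muscle-marked cluster of the old library held 159 CPM (125 to 200) of Cyp4b1. That was below old Coch/Sost cells and above the 111 CPM (101 to 122) of old Bcan/Isl1 cells.

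The log2 ratio of Coch/Sost cells over all other EC-like cells was 1.93 (1.80 to 2.06) for Cyp4b1 in the old library and 1.66 (1.51 to 1.82) in the young. For Aldh3a1 it was -1.18 (-1.50 to -0.87) in the old and -2.06 (-2.31 to -1.81) in the young library. For Fmo2 it was -0.97 (-1.13 to -0.83) in the old and -0.79 (-0.94 to -0.63) in the young library. Ephx1 was lower by a like amount in both, at -0.32 (-0.46 to -0.17) in the old and -0.31 (-0.43 to -0.20) in the young library. Of the 5 genes, Cyp4b1 was at least 2-fold higher in each library, beside 0.797% of all genes in the old and 1.08% in the young, and Aldh3a1 was at least 2-fold lower, beside 1.55% in the old and 1.34% in the young. Both subtypes came from the same library, so preparation and sequencing were shared within each ratio. Fibroblast markers summed to 202 CPM in Coch/Sost cells, 609 CPM in Bcan/Isl1 cells and 256 CPM in the remaining endothelium of the old library, and to 283, 500 and 435 CPM in the same groups of the young library. Their part in the Fmo2 levels was not tested.

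**Figure D2:**
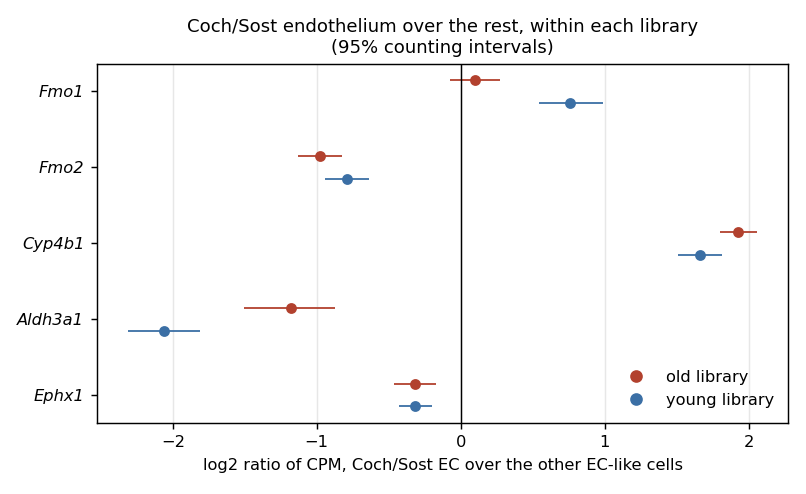
Log2 ratio of CPM in Coch/Sost endothelium over all other EC-like cells (horizontal axis) for 5 genes, in the old (red) and young (blue) library, with 95% counting intervals. Cyp4b1 lies at 1.93 and 1.66, Aldh3a1 at -1.18 and -2.06 in the old and young library, and Fmo1 is near 0 in the old library only.

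The endothelial pattern of Fmo1 was not alike in the libraries. Coch/Sost cells over all other EC-like cells gave 0.10 (-0.07 to 0.27) in the old library and 0.76 (0.54 to 0.99) in the young one. Fmo1 and Fmo2 were highest together in old Bcan/Isl1 cells, with log2 ratios over the remaining old endothelium of 1.21 (1.06 to 1.37) for Fmo1 and 1.09 (0.99 to 1.20) for Fmo2. These were 2 of the 5 genes, beside 0.596% of all genes that were at least 2-fold higher there. In the young library the same ratios were 0.71 (-0.04 to 1.39) and 0.53 (0.13 to 0.91), and 0 of 5 genes were at least 2-fold higher, beside 1.47% of all genes, with 28 cells in the subtype. The old subtype held 548 cells here. It held 967 with cells assigned singly, 1039 at up to 5% mitochondrial UMIs, 1364 at a finer clustering and 321 when clustered within the library. The ratios over the remaining endothelium were not recomputed at those borders. Smooth muscle markers, summed, were at 669 CPM in Bcan/Isl1 cells and 114 CPM in the remaining endothelium of the old library, and at 403 CPM and 226 CPM in the young library. Their part in these ratios was not tested.

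Against Bcan/Isl1 cells directly, Coch/Sost cells had more Cyp4b1, by 1.60 (1.43 to 1.77) in the old and 1.68 (1.05 to 2.40) in the young library on the log2 scale. They had less Fmo2, at -1.59 (-1.75 to -1.43) in the old and -1.29 (-1.67 to -0.88) in the young library, and less Aldh3a1, at -1.41 (-1.76 to -1.08) and -2.16 (-2.70 to -1.58). In each library 1 of 5 genes was thus at least 2-fold higher and 2 of 5 at least 2-fold lower, beside 1.24% and 1.47% of all genes in the old library and 8.23% and 1.72% in the young. Fmo1 gave -0.56 (-0.75 to -0.38) in the old library, which did not hold its direction: it was 0.11 when cells were assigned singly and 0.00049 at a finer clustering. The Bcan/Isl1 border moved with the method, since the same markers took 615 young cells when each library was clustered alone.

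Between the ages, both monooxygenases were higher in the endothelium of the old library. Over all EC-like cells Fmo1 had 120 CPM (114 to 125) in the old and 71.0 CPM (65.9 to 76.4) in the young library, a log2 ratio of 0.75 (0.63 to 0.88). Fmo2 had 256 CPM (248 to 264) in the old and 151 CPM (143 to 159) in the young library, a log2 ratio of 0.76 (0.68 to 0.85). The other 3 detected genes were lower in the old library. Cyp4b1 had 137 CPM against 186 CPM in the young library (-0.44, -0.53 to -0.35), Aldh3a1 had 67.2 CPM against 87.5 CPM (-0.38, -0.51 to -0.25) and Ephx1 had 197 CPM against 239 CPM (-0.28, -0.36 to -0.20). None of the 5 reached 2-fold in either direction, beside 3.34% of 10028 genes. The median log2 ratio of those genes was 0.06. Haemoglobin and other erythroid markers summed to 604 CPM in old and 25.3 CPM in young EC-like cells. Scaling to a total without mitochondrial, ribosomal protein and haemoglobin genes moved none of these ratios beyond its counting interval. The part of free RNA in these ratios was not tested.

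The mix of subtypes differed between the libraries and moved with these totals. Coch/Sost cells gave 19.9% of the EC-like UMIs in the old library and 49.6% in the young. The old levels were weighted to the young mix of Coch/Sost cells and all other EC-like cells. Cyp4b1 then came to 211 CPM in the old library against 186 CPM in the young, and its log2 ratio turned to 0.18. For Fmo1 the weighted ratio was 0.78, for Fmo2 0.51, for Aldh3a1 -0.68 and for Ephx1 -0.37. The lower Cyp4b1 total of the old endothelium was thus not seen at this mix, whereas Fmo1 and Fmo2 stayed higher and Aldh3a1 lower. The share of Bcan/Isl1 cells outside the Coch/Sost subtype was not made equal: it was 548 of 1945 old and 28 of 629 young cells. Old Bcan/Isl1 cells had 187 CPM of Fmo1 and 433 CPM of Fmo2, against 80.6 CPM and 203 CPM in the old remaining cells. The part of this share in the weighted ratios was not tested.

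Within Coch/Sost cells the old over young log2 ratios were 0.50 (0.29 to 0.70) for Fmo1, 0.38 (0.20 to 0.57) for Fmo2 and 0.24 (0.12 to 0.36) for Cyp4b1. Aldh3a1 gave -0.01 (-0.39 to 0.36) and Ephx1 -0.37 (-0.53 to -0.21). None of the 5 reached 2-fold, beside 2.44% of all genes. Cyp4b1 here turned to -0.02 when cells were assigned singly.

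In the remaining endothelium Aldh3a1 was the gene that differed most. It had 68.5 CPM (62.6 to 74.7) in the old and 140 CPM (130 to 151) in the young library, a log2 ratio of -1.03 (-1.20 to -0.86), and was the 1 of 5 genes past 2-fold, beside 1.85% of all genes that were at least 2-fold lower. Without cells that carried markers of other classes this ratio was -0.74. Fmo1 was higher, at 0.65 (0.43 to 0.87), while Fmo2 gave 0.12 (-0.00 to 0.24), Cyp4b1 -0.25 (-0.43 to -0.06) and Ephx1 -0.32 (-0.42 to -0.21). Fmo2 here was 0.61 with cells assigned singly and -0.09 at a finer clustering. Cyp4b1 was 0.13 with cells assigned singly and 0.02 at equal depth.

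The Bcan/Isl1 comparison rested on 28 young cells. Fmo1 had 187 CPM in the old and 84.1 CPM in the young library, a log2 ratio of 1.15 (0.50 to 1.89), which made it the 1 of 5 genes at least 2-fold higher, beside 6.81% of all genes. Fmo2 gave 0.68 (0.31 to 1.07), Cyp4b1 0.32 (-0.32 to 1.05), Aldh3a1 -0.76 (-1.27 to -0.21) and Ephx1 -0.21 (-0.63 to 0.24). With each library clustered alone, so that the young group held 615 cells and the old 321, Fmo1 gave 1.997 and Fmo2 1.22. Over all EC-like cells outside the Coch/Sost subtype, a border that moved less, Fmo1 gave 1.16 (0.97 to 1.35), Fmo2 0.57 (0.47 to 0.68), Cyp4b1 -0.03 (-0.19 to 0.13), Aldh3a1 -0.89 (-1.04 to -0.75) and Ephx1 -0.37 (-0.46 to -0.27). Fmo1 was there the 1 of 5 genes at least 2-fold higher, beside 1.24% of all genes. The mix of this pool differed between the ages, with 548 Bcan/Isl1 cells of 1945 in the old and 28 of 629 in the young library. Its part in these ratios was not tested. In the remaining endothelium alone Fmo1 gave 0.65 and Fmo2 0.12.

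Fibroblast-like cells showed the opposite direction for the monooxygenases as a class. Fmo1 had 30.4 CPM (24.5 to 37.3) in the old and 79.2 CPM (67.6 to 92.2) in the young library, a log2 ratio of -1.38 (-1.77 to -1.01). Fmo2 had 41.6 CPM (34.7 to 49.6) in the old and 151 CPM (135 to 168) in the young library, a log2 ratio of -1.86 (-2.17 to -1.55). These were 2 of the 3 genes with at least 100 UMIs, beside 2.63% of all genes that were at least 2-fold lower. Ephx1 gave -0.30 (-0.58 to -0.02).

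The Gdf10/Mfap4 subtype gave 6.90% of the fibroblast-like UMIs in the old library and 40.0% in the young. At the young mix the ratios were -0.31 for Fmo1 and -0.28 for Fmo2. Within the subtype Fmo1 gave -0.47 (-1.14 to 0.14) and Fmo2 -0.28 (-0.72 to 0.13). Within the remaining fibroblasts they gave 0.49 (-0.24 to 1.27) and -0.30 (-0.90 to 0.31). None of these 4 within-subtype differences was detectable at this depth, since each interval held 0. Among members with at least 100 UMIs, 0 of 3 passed 2-fold in the subtype, beside 6.45% of all genes. In the remaining fibroblasts 0 of 2, Fmo2 and Ephx1, did so, beside 2.93%. Fmo1, with 66 old and 21 young UMIs there, was not counted. How many cells of each subtype the preparation released cannot be told apart from how many the vessel held.

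**Figure D3:**
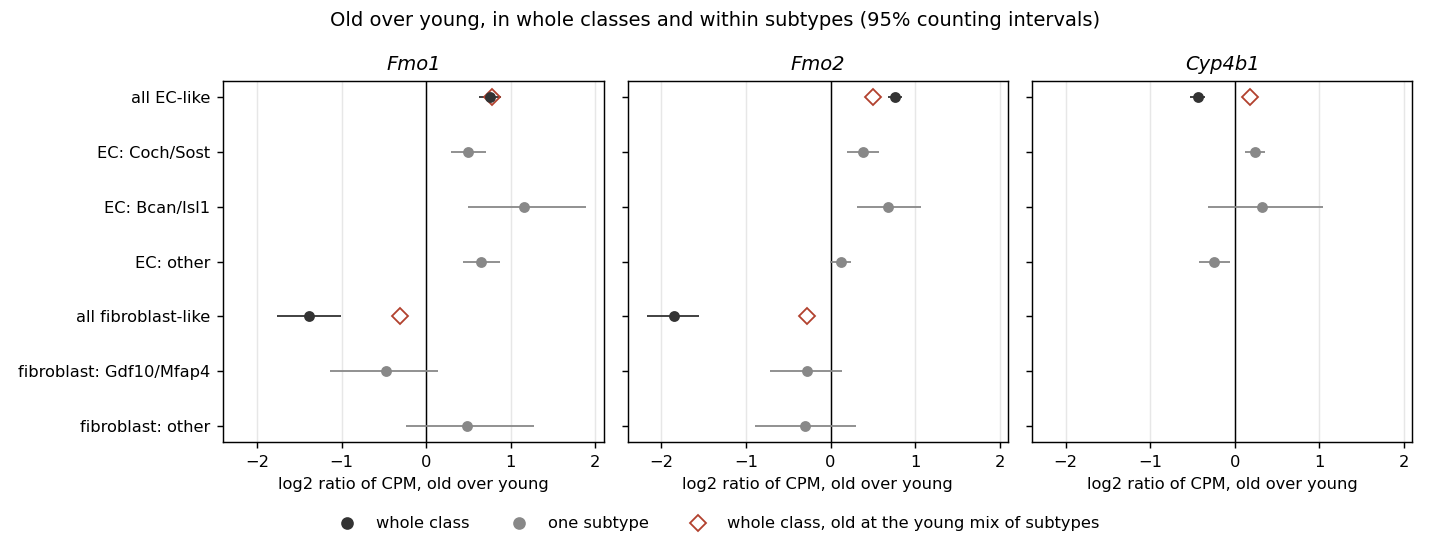
Log2 ratio of CPM, old over young (horizontal axis), for Fmo1, Fmo2 and Cyp4b1 in whole classes (black), single subtypes (grey) and whole classes with old levels weighted to the young mix of subtypes (open red diamonds). Bars are 95% counting intervals, and groups with under 50 UMIs are not drawn. For EC-like cells the mix is that of Coch/Sost cells and all other EC-like cells. The diamond for Cyp4b1 in EC-like cells lies at 0.18, against -0.44 unweighted, and those for fibroblast-like cells lie at -0.31 for Fmo1 and -0.28 for Fmo2.

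Cyp1a1 was all but silent. It had 0 UMIs among all 19171045 UMIs of the old library and 1 UMI, in a young Coch/Sost cell, among 12576023 UMIs of the young library. In old EC-like cells the count of 0 gave 0 CPM (0 to 0.261), and in young ones the single UMI gave 0.0989 CPM (0.0025 to 0.551), so no fold is given. The receptor Ahr itself was detected at 15.1 CPM in old and 9.30 CPM in young EC-like cells.

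The share of cells with a UMI was compared at equal depth. Each cell was thinned to 3100 UMIs, which left 1828 of 2388 old and 982 of 1083 young EC-like cells. Fmo1 was then seen in 27.5% (25.4 to 29.6) of old and 15.9% (13.7 to 18.3) of young EC-like cells, against 38.9% and 33.3% unthinned. Fmo2 was seen in 43.7% (41.4 to 46.0) of old and 29.8% (27.0 to 32.8) of young cells. Cyp4b1 was seen in 55.4% (50.1 to 60.6) of old and 51.8% (46.9 to 56.6) of young Coch/Sost cells, and in 20.8% and 17.9% of the old and young EC-like cells outside them. The last pair ran against the levels of 88.0 CPM in the old and 89.9 CPM in the young library, so no order is read from it. Aldh3a1 was seen in 18.6% (16.2 to 21.2) of old and 32.6% (28.6 to 36.7) of young cells of the remaining endothelium.

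As a background, 2.44% of 123 old T or NK-like cells, at a median of 2441 UMIs, had a Fmo1 UMI, as did the same share for Fmo2 and Aldh3a1, and 4.07% had a Cyp4b1 UMI, against a median of 4999 UMIs in old EC-like cells. In old macrophage-like cells, at a median of 4109 UMIs, the share was 8.81% for Fmo1 and for Fmo2. At equal depth it was 6.14% for Fmo1 and 5.26% for Fmo2 in macrophage-like cells. In T or NK-like cells it was 6.45% (0.79 to 21.4) for Fmo2, from 2 of 31 cells, and 0 of 31 cells had a Fmo1 UMI. For Ephx1 the T or NK-like share was 16.3%, so Ephx1 UMIs were common outside the endothelium too. At equal depth Ephx1 was seen in 44.9% (42.6 to 47.2) of old and 53.9% (50.7 to 57.0) of young EC-like cells, and in 6 of 31 old T or NK-like cells.

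In the remaining endothelium Fmo1 was seen more often in cells with Fmo2 than in cells without it. At equal depth, Fmo1 was seen in 24.9% (20.6 to 29.7) of old cells with Fmo2 and in 17.1% (14.2 to 20.3) of old cells without it, and in 16.8% (11.7 to 23.1) and 8.29% (5.62 to 11.7) of the young cells. The intervals did not overlap in either library, in the young one by a narrow gap. In Coch/Sost cells the shares were 40.7% and 24.7% in the old and 27.8% and 19.6% in the young library, the young intervals overlapping. In old Bcan/Isl1 cells they did not differ beyond counting error, at 40.0% (34.6 to 45.6) with Fmo2 and 42.2% (34.6 to 50.1) without. Nor did they in young Gdf10/Mfap4 fibroblasts, at 34.0% (20.9 to 49.3) with Fmo2 and 34.5% (22.2 to 48.6) without. In the old ones the shares were 18.2% of 11 cells with Fmo2 and 35.7% of 14 cells without, with overlapping intervals.

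Across 14 groups of at least 20 cells, by kind of cell and library, the genes most like each member were found from Pearson's r of log2(CPM + 10) over 9550 genes. These groups share 2 libraries and their depth, so r is a description. For Fmo2 the most similar gene was its neighbour Fmo1 (r = 0.92), followed by Zbtb38, a zinc finger protein that binds methylated DNA (0.91), and Ppl, the plaque protein periplakin (0.91). For Fmo1 they were Nradd, a death-domain relative of neurotrophin receptors (0.94), Ppl (0.94) and Gm37494 (0.92). For Cyp4b1 they were Mllt3, a chromatin reader of the elongation machinery (0.98), the sheddase Adam10 (0.97) and the endothelial lectin-like receptor Cd93 (0.96). Aldh3a1 went with the desmosome-linked protein Perp, the claudin Cldn15 and the matrix protein Spon1 (0.94 each). Ephx1 went with the scaffold protein Grasp (0.98), the adenylyl cyclase Adcy6 (0.97) and the hydrolase Rbbp9 (0.97). Among the members themselves r ranged from 0.35 for Fmo1 with Aldh3a1 to the 0.92 of Fmo1 with Fmo2.

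The pathway lists gave few large differences between old and young EC-like cells. Of 69 genes on the lists, members included, with at least 50 UMIs, 4 were at least 2-fold higher and 2 at least 2-fold lower in the old library, beside 2.1% and 2.53% of 10950 genes. Among the other Fmo genes, Fmo5 alone had 50 UMIs, with 67.0 CPM in the old and 84.5 CPM in the young library. Of 83 cytochromes P450 of families 1 to 4, 61 had 0 UMIs and 11 had at least 50. Cyp2e1, which oxidises ethanol and small solvents, was the 1 of these 11 past 2-fold, at 2.27 CPM in the old and 10.9 CPM in the young library (-2.26, -2.88 to -1.68).

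Aldehyde dehydrogenases held 14 measured genes of 21, and 3 were at least 2-fold higher in the old library. Aldh1a2, which makes retinoic acid, had 50.8 CPM in the old and 2.67 CPM in the young library, a log2 ratio of 4.25 (3.69 to 4.86). Aldh1a3, another retinal dehydrogenase, gave 1.14 (0.46 to 1.87), and Aldh5a1, of the GABA shunt, gave 1.04 (0.37 to 1.76), both from fewer than 100 UMIs in all. Aldh2, the mitochondrial acetaldehyde dehydrogenase, gave -0.01 (-0.05 to 0.04).

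Of 24 glutathione transferases 16 were measured. Gsta4, which conjugates lipid aldehydes, was higher in the old library at 37.8 CPM against 15.04 CPM in the young (1.33, 1.07 to 1.60), and Gstp1 was lower at 51.4 CPM against 152 CPM in the young (-1.56, -1.69 to -1.43). Gstp1 shared 37.7% of its 3′ stretches with Gstp2 and a pseudogene, so its count is uncertain. In the remaining lists 0 genes passed 2-fold. These were 6 measured conjugating transferases of 46, 2 epoxide hydrolases of 4, 5 electron partners of 5, 8 genes of the aryl hydrocarbon receptor pathway of 14, 4 xenobiotic sensors of 8 and 5 efflux pumps of 7. Between the endothelial subtypes 67 list genes were measured in the old library, where 3 were at least 2-fold higher and 5 lower in Coch/Sost cells than in the other EC-like cells, beside 1.16% and 2.33% of all genes. In the young library 63 were measured, with 3 higher and 3 lower, beside 1.4% and 1.63%. In fibroblast-like cells 0 of 49 genes were at least 2-fold higher and 4 lower in the old library, beside 1.76% and 3.26%. Por, the reductase that feeds electrons to cytochromes P450, had 143 CPM in old and 175 CPM in young EC-like cells.

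**Figure D4:**
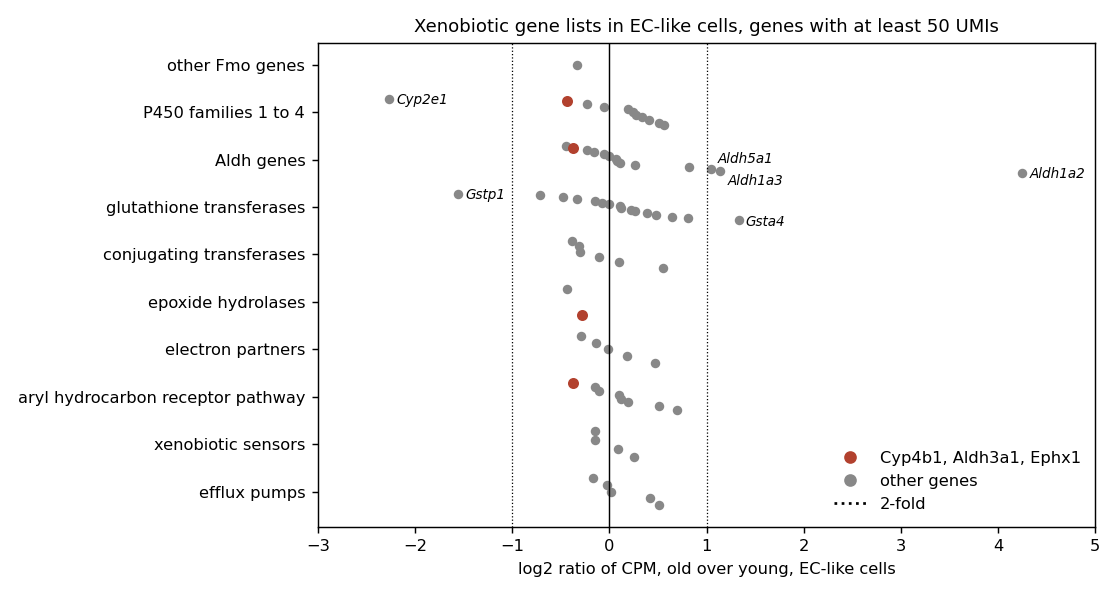
Log2 ratio of CPM, old over young (horizontal axis), of each gene with at least 50 UMIs in EC-like cells, by list (rows). Members of the set are red, other genes grey, and dotted lines mark 2-fold. Aldh1a2 lies at 4.25 and Gsta4 at 1.33, Cyp2e1 at -2.26 and Gstp1 at -1.56, and most genes lie between the dotted lines.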

How the data were processed

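The 2 tables of UMI counts per gene and cell barcode were deposited by the authors, 1 per library. They were made with Cell Ranger on GRCm38, per the submitters' processing notes, with the version not given in the sources used here, and are raw counts without cell annotation. A barcode was kept if it had 200 or more genes and no more than 10% mitochondrial UMIs, which left 3336 of 3408 old and 1365 of 1366 young barcodes. Counts of 2000 variable genes, without the 6 members, were log-normalised, reduced to 30 components and clustered (15 neighbours, Leiden resolution 0.5, scanpy 1.11.5, igraph 0.11.9). A class needed 3 markers in 25% of a cluster's cells, and a subtype needed 2 of 3 markers at 1.5 times the class mean. A cluster of 55 old and 15 young cells led by smooth muscle genes stayed unnamed. No doublet caller was used, and cells with markers of other classes were left out in an alternative. UMIs were summed by library and kind of cell. Poisson, conditional binomial and Clopper-Pearson intervals are exact (scipy 1.17.1), and the interval method was checked on simulated counts. Genes with 100 or more UMIs gave the background shares, or 50 for the lists. Beyond the members, the genes named are the 3 most alike for each member, among genes with 200 or more UMIs, and up to 3 genes of each list past 2-fold each way in EC-like cells. Ahr, Aldh2, Fmo5 and Por were named after their values were seen. The members, lists and markers were chosen with earlier results of these data known. Alternatives covered cell assignment, mitochondrial share, scaling, depth, marker-free cells and clustering.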

Additional observations from a re-analysis of the deposited data

Results flagged for a closer look

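Cyp4b1 was marked because its old over young ratio ran in opposite directions in 2 kinds of endothelium, with both counting intervals clear of 0. It was 0.24 (0.12 to 0.36) in Coch/Sost cells and -0.25 (-0.43 to -0.06) in the remaining endothelium, a difference of 0.48 on the log2 scale. The difference was not tested, since there is 1 library per age. It did not hold under every setting: with cells assigned singly the ratios were -0.02 in Coch/Sost cells and 0.13 in the remaining endothelium, and at equal depth the ratio of the remaining endothelium was 0.02.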

How the results depend on the processing

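No paired analysis was possible because each age had 1 library. Of the recomputed values, 357 stayed within the counting interval or count limit, 72 moved beyond it, and 7 whose interval was clear of 0 changed sign. Scaling by the median of ratios, or to a total without mitochondrial, ribosomal protein and haemoglobin genes, moved none. With cells that carried other classes' markers left out, 22 of the main results moved, 1 changed sign and 14 stayed. Of the other results, 12 moved and 3 stayed in that setting. The cause of the changes below was not tested. Values are log2 ratios, and clustering within each library and the young mix of subtypes were chosen after seeing the data. In endothelium that mix set only Coch/Sost cells against all other EC-like cells. For old over young in EC-like cells, equal depth gave 0.62 for Fmo2 and -0.31 for Cyp4b1, leaving out cells with other classes' markers (641 old and 240 young cells stayed) gave 1.01 and -0.63, and the young mix gave 0.51 for Fmo2, 0.18 for Cyp4b1 (reversed), -0.68 for Aldh3a1 and -0.37 for Ephx1. Cyp4b1 also reversed in Coch/Sost cells assigned singly (-0.018) and in the remaining endothelium assigned singly (0.13) or at equal depth (0.022). In fibroblast-like cells, leaving out marked cells gave -0.95 for Fmo1, -1.53 for Fmo2 and 0.32 for Ephx1 (reversed), equal depth gave -2.65 for Fmo2, and the young mix gave -0.31 for Fmo1 and -0.28 for Fmo2.

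For Coch/Sost over Bcan/Isl1 cells in the old library, single assignment gave 0.11 for Fmo1 (reversed), -0.78 for Fmo2 and -1.07 for Aldh3a1. A limit of 5% mitochondrial UMIs gave -0.29 for Fmo1 and -1.31 for Fmo2. Leaving out marked cells gave -1.89 for Fmo2, 1.01 for Cyp4b1, -0.85 for Aldh3a1 and -0.41 for Ephx1, and the finer clustering gave 0.00049 for Fmo1 (reversed), -1.09 for Fmo2 and 1.89 for Cyp4b1. In the young library Fmo1 was 0.86 by single assignment and -0.85 without marked cells, Fmo2 was -0.50 at 5% mitochondrial UMIs and -0.88 clustered within the library, and Aldh3a1 was -3.66 without marked cells, with 2 young Bcan/Isl1 cells left. Over all other EC-like cells of the old library, single assignment gave -0.56 for Fmo2 and 1.41 for Cyp4b1, and leaving out marked cells gave 0.45 for Fmo1 and -0.74 for Fmo2. In the young library single assignment gave 1.35 for Cyp4b1 and -1.66 for Aldh3a1, equal depth gave -2.34 for Aldh3a1, and leaving out marked cells gave 1.33 for Fmo1, -0.45 for Fmo2, 1.23 for Cyp4b1 and -0.47 for Ephx1.

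Counts of members past 2-fold took only members with at least 100 UMIs. Without marked cells the count was 1 rather than 3 for Coch/Sost over Bcan/Isl1 cells in each library, with 26 old and 2 young Bcan/Isl1 cells left. It was 1 rather than 2 over all other young EC-like cells and 1 rather than 0 for old over young in EC-like cells. In fibroblast-like cells it was 0 rather than 2. A lower count was not always a smaller ratio. Fmo2, at -1.89, and Cyp4b1, at 1.01, still lay past 2-fold over old Bcan/Isl1 cells. So did Fmo1 (1.33) and Cyp4b1 (1.23) over all other young EC-like cells, and Fmo2 in fibroblast-like cells. The young mix also gave 0 in fibroblast-like cells, with Fmo1 and Fmo2 within 2-fold. Single assignment gave 1 rather than 2 over all other old EC-like cells. For old over young in Bcan/Isl1 cells the count of 1 became 2 at 5% mitochondrial UMIs and within libraries, and 0 at equal depth and without marked cells. The share of all genes past 2-fold in EC-like cells was 7.08% among genes with at least 20 UMIs, against 3.34% among those with at least 100. The main limits are 1 library per age and a Bcan/Isl1 border that moved with the method. In settings that left out no cells for markers or depth, it took 28 to 615 young and 321 to 1364 old cells. A further limit is a Gdf10/Mfap4 subtype of 65 old cells at a median of 2802 UMIs, which fell to 9 old and 10 young cells by single assignment.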

Other observations

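Cyp1b1, a cytochrome P450 of the aryl hydrocarbon receptor pathway, was well detected where Cyp1a1 was not, and was named after its values were seen, as were the other genes here. It stood at 132 CPM in Coch/Sost cells and 303 CPM in the other EC-like cells of the old library, and at 102 CPM and 276 CPM in the young library, with log2 ratios of -1.20 (-1.36 to -1.04) in the old and -1.44 (-1.59 to -1.29) in the young. Gsto1, an omega-class glutathione transferase, ran the other way, with log2 ratios of 1.30 (0.76 to 1.83) in the old and 1.32 (0.80 to 1.86) in the young library. Aldh1a2 was at 7.11 CPM in old Coch/Sost cells and 61.6 CPM in the other old EC-like cells. In fibroblast-like cells Gstp1 was at 56.2 CPM in the old and 244 CPM in the young library, a log2 ratio of -2.12 (-2.38 to -1.87), in the same direction as its ratio in EC-like cells, with the same uncertainty from Gstp2. Aldh1a1, another retinal dehydrogenase, was at 18.2 CPM in old and 45.3 CPM in young fibroblast-like cells, from 55 and 95 UMIs.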
